A study of Mus musculus with 4 samples.

Results

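Accessible chromatin was described at 10 genes that restrain the cell cycle or act in the p53 pathway: the CDK inhibitor genes Cdkn1a, Cdkn1b, Cdkn1c, Cdkn2a, Cdkn2b and Cdkn2c, the tumor suppressor genes Trp53 and Rb1, and the p53 target genes Mdm2 and Ccng1. The genes were taken from a fixed list of names, and their members were all ATAC-seq peaks that overlapped the gene body or the 10 kb on either side. ATAC-seq uses the transposase Tn5 to cut and tag open chromatin, so that peaks of reads mark accessible DNA. Across 4 libraries, 50 of 71243 regions lay in these windows, where a region is a set of peaks that overlap between libraries by at least 1 bp.

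The libraries came from mouse bone marrow-derived macrophages (BMDMs), grown for 6 to 8 days in medium conditioned by L929 cells, with 2 biological replicates for each genotype. WT mice were H3f3a fl/fl H3f3b fl/fl, with both genes for histone H3.3 floxed and no Cre. H3.3cKO (cKO) mice carried the same floxed alleles and were in addition LysM cre/cre, with Cre expressed from the Lyz2 locus, which is active in myeloid cells. The study kept both genotypes on a C57BL/6 background and used male and female mice aged 8 to 10 weeks. No library with Cre and intact H3.3 genes was analysed here, so the effects of the Cre allele and of H3.3 loss cannot be told apart. Each library averages over 50000 cells.

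The p53 protein is a transcription factor that is stabilized after DNA damage and binds a response element made of a pair of decamers. Its target Cdkn1a encodes p21, which inhibits cyclin-dependent kinases, while its target Mdm2 encodes the ubiquitin ligase that degrades p53. The Cdkn1 genes (p21, p27 and p57) inhibit CDK complexes broadly, and the Cdkn2 genes (p16, p15 and p18) inhibit CDK4 and CDK6. These kinases phosphorylate the Rb protein, which otherwise holds E2F factors inactive and cells in G1. Macrophage progenitors divide early in culture and stop as they mature, and CDK inhibitors take part in that exit.

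The sequences that the results below turn on are shown first, all from mouse build mm10 (RefSeq GRCm38.p6), 5′ to 3′. In each, capitals mark matches to the p53 response element with at most 1 mismatch in 20 letters, or to AP-1 (TGACTCA), PU.1 (GAGGAAGT) or E2F (TTTCGCGC, TTTGGCGC or TTTCCCGC), on either strand. The limit of 1 mismatch was chosen after the matches were seen. The 250 bases before the Trp53 start (chr11:69580109-69580358, forward strand) and 300 bases of a Trp53 intron (chr11:69585898-69586197, forward strand) come from the regions with the largest cKO excess among those called in all 4 libraries:
Trp53 promoter: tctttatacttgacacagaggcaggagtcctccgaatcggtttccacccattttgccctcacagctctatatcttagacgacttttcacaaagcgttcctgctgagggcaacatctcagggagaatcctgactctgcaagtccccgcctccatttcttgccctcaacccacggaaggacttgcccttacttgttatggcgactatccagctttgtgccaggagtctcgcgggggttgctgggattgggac
Trp53 intron: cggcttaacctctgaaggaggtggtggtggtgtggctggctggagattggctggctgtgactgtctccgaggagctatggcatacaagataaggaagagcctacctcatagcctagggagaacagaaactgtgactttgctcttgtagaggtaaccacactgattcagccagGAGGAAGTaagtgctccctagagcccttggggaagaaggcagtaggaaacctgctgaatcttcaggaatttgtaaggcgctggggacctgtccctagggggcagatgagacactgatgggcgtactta
Next are 300 bases around the summit of the intronic Rb1 region with the largest cKO deficit among regions called in all 4 libraries (chr14:73234582-73234881) and of a region 7034 bp upstream of Mdm2 (chr10:117717618-117717917), both with a p53 match and printed on the forward strand:
Rb1 intron: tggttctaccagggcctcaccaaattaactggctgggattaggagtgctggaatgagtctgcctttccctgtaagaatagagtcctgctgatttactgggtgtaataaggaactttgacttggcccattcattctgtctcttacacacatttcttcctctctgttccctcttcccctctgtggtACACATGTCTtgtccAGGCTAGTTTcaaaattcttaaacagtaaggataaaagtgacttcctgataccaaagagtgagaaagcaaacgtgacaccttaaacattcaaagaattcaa
Mdm2 upstream: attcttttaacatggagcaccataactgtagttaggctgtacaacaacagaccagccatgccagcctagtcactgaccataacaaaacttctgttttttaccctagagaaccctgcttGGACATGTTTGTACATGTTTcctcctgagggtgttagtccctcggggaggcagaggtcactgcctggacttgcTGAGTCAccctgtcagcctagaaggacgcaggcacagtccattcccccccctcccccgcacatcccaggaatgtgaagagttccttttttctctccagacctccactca
The strongest gained peak at these genes lay beyond the 3′ end of Mdm2 and held no match of these kinds around its summit (chr10:117687613-117687912, forward strand):
Mdm2 3′ flank: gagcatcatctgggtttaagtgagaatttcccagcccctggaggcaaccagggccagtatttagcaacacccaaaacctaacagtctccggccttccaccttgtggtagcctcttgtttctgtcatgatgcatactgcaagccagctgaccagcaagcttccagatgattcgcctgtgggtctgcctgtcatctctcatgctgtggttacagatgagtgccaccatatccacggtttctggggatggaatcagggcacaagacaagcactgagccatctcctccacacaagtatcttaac
The upstream start of Cdkn1a (chr17:29090729-29090978, forward strand) held overlapping p53 matches but no called peak, and the start of Ccng1 (chr11:40755287-40755536, reverse strand) held both a match and a strong peak:
Cdkn1a upstream promoter: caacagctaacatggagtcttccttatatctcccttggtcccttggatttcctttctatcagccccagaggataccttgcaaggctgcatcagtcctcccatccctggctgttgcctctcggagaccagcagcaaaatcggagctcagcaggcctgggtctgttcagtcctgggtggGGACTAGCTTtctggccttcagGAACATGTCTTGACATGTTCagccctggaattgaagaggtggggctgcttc
Ccng1 promoter: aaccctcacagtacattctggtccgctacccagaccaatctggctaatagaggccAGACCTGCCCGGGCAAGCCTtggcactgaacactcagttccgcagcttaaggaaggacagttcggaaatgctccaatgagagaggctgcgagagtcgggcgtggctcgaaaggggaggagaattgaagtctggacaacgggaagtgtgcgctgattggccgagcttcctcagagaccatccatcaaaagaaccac
Cdkn2a has separate starts for p19Arf (chr4:89294620-89294869) and p16Ink4a (chr4:89282193-89282442), both read on the reverse strand, which differed most in accessibility:
Cdkn2a p19Arf promoter: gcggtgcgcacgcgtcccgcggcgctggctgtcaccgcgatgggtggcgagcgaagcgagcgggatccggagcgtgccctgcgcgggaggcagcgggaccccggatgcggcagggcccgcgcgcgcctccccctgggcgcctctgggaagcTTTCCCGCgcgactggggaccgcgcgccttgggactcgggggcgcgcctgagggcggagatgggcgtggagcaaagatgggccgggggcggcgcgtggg
Cdkn2a p16Ink4a promoter: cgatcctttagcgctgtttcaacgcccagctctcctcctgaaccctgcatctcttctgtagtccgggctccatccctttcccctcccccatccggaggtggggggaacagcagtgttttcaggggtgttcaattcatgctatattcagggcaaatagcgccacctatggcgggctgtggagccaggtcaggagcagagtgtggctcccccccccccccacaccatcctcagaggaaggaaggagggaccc

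The lists held 55742 and 64939 peaks in WT against 51955 and 60884 in cKO. The deletion was checked at both H3.3 genes. At H3f3a, a weak region over the floxed exon 2 was called in WT only, at percentiles 5.02 and 19.1. At H3f3b, whose exons the study floxed as well, the region over exons 1 to 3 of transcript H3f3b-201 (chr11:116023771-116024892) was called in every library, with WT values of 94.2 and 95.5 and lower cKO values of 87.0 and 81.4. The calls at H3f3a go with the labels but are weak evidence of a deletion, since 7.25% of all regions had this pattern of calls. At H3f3b the peak lists do not show the deletion. The paper reports loss of H3.3 from PCR, RNA and protein assays. It describes the H3f3b deletion as variable, complete in some cKO samples and partial in others. How complete the deletion was in these libraries was not tested. Promoters of 7 of 8 macrophage marker genes were called in all 4 libraries, and those of 6 lymphocyte and 6 fibroblast genes in none. Spi1, which encodes the macrophage factor PU.1, was the marker without a called promoter. Of 6 neutrophil marker promoters, S100a8 was called in all 4, Camp in 3, Ly6g in both cKO libraries alone and 3 in none. Their part in the results was not tested.

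Peak strength is given as a percentile, the share of a library's own peaks with an area at or below that of the peak. The area is the caller's significance summed over the peak's bases, so it rises with both height and width. The WT libraries held 39 and 50 peaks at the 10 genes, and the cKO libraries 40 and 46. Replicate 2 had more in both genotypes, and the genotypes overlapped. The means were 44.5 ± 7.78 in WT and 43.0 ± 4.24 in cKO (SD, n = 2), and the difference of -1.5 peaks was smaller than these SDs (two-sided p = 1 by an exact permutation test, which cannot give a p below 0.333 here).

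Most of the accessible regions at these genes were present in both genotypes. Of the 50 regions, 35 (70%) were called in all 4 libraries, against 62.9% of all regions. A region called in both cKO libraries but not in WT (gained) was found at Cdkn1a and at Mdm2, or 2 of 50 (4%) against a background of 3.72% of all regions. None was called in WT alone in both replicates (lost), where the background was 7.25%. The other 13 regions did not follow genotype, and 5 of them were called in WT replicate 2 alone. These counts moved with single libraries. Gained regions numbered 4 without WT replicate 2 (background 7.93%), and lost regions 5 without WT replicate 1 (background 14.4%) and 3 without cKO replicate 2 (background 13.4%).

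Among the 35 regions called in all 4 libraries, both cKO percentiles lay above both WT percentiles in 7 (20.0%, against 22.2% of all such regions) and below them in 14 (40.0%, against 35.1%). The genotypes overlapped in the other 14. Without WT replicate 1 the lower regions numbered 24 of 37 (background 54.5%), and without cKO replicate 2 they numbered 25 of 35 (background 56.6%). The median difference was -3.85 percentile points at the 10 genes and -1.10 over all 44820 regions called in all 4. These shares lay near the background, and differences are described below gene by gene. Of the 21 regions without overlap, 9 kept their direction under all 5 other ways of ranking peaks, 3 of them higher and 6 lower. Of the 14 that overlapped, 12 stood apart under at least 1 of the other rankings. The matching shares over all regions were not computed, so whether these counts are usual is not known.

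**Figure D1:**
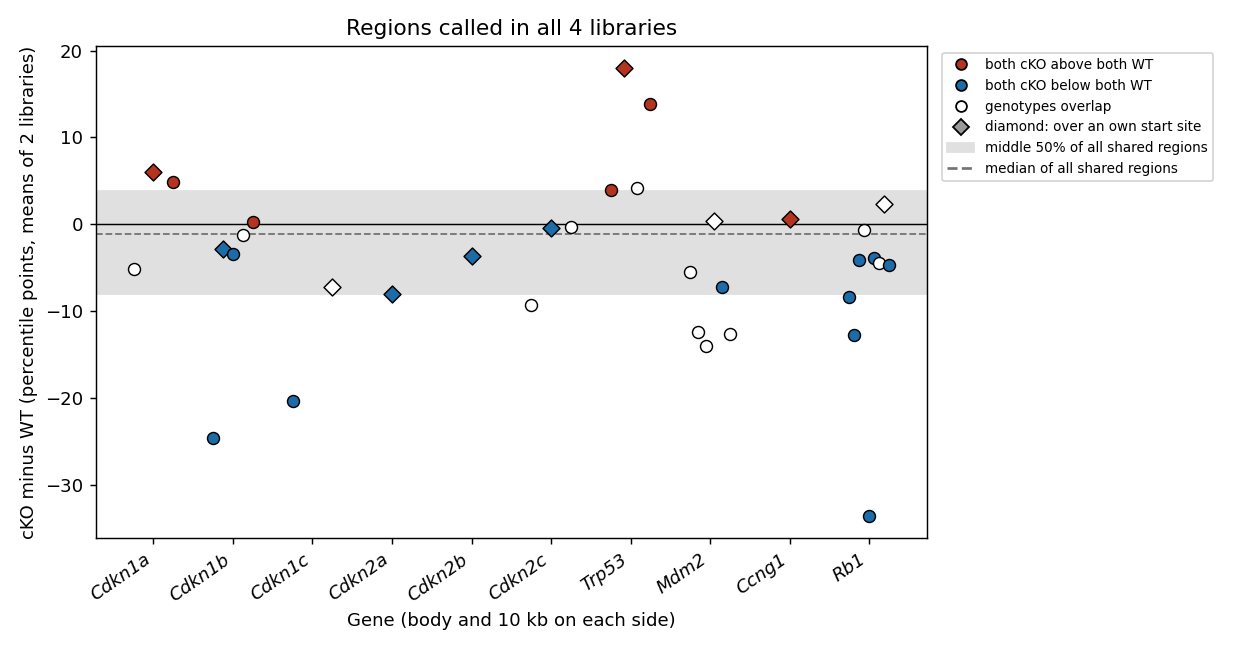
Difference between genotypes (cKO minus WT, percentile points of peak area, means of 2 libraries each) for the 35 regions called in all 4 libraries, by gene. Diamonds lie over a start site of the gene, fill shows whether the 2 genotypes overlapped, and the grey band holds the middle 50% of all 44820 such regions around their median (dashed, -1.10). Trp53 held the highest value (17.96) and Rb1 the lowest (-33.6).

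All 10 genes had a region over an annotated start site that was called in all 4 libraries. Of all regions classed as promoters, 84.6% were called in all 4. In 7 of these 10 regions every percentile was above 80, which held for 45.3% of the 9052 promoter regions called in all 4. The sets are not alike, since promoter regions are centred from 1 kb before to 100 bp after a start. The start regions of Cdkn1b, Cdkn2b, Mdm2 and Rb1 reach over a start but are centred in an exon or intron. By the mean of 4 libraries the order was Cdkn2c (98.6), Ccng1 (98.1), Cdkn1b (95.8), Mdm2 (95.4), Cdkn2a (90.8, at the p19Arf start), Rb1 (90.01), Cdkn2b (87.7), Cdkn1c (61.7), Cdkn1a (54.4) and Trp53 (39.1). Each gene overlapped its neighbour in this order over the 4 libraries except Cdkn2b and Cdkn1c. Per base of the peak, Ccng1 came first (mean percentile of area per base 94.9), Mdm2 second (85.3) and Trp53 last (23.5). Cdkn2c, whose start region is wide, came seventh (64.02). Area per base is a mean over the called width, so it still depends on where the edges of a peak were called.

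**Figure D2:**
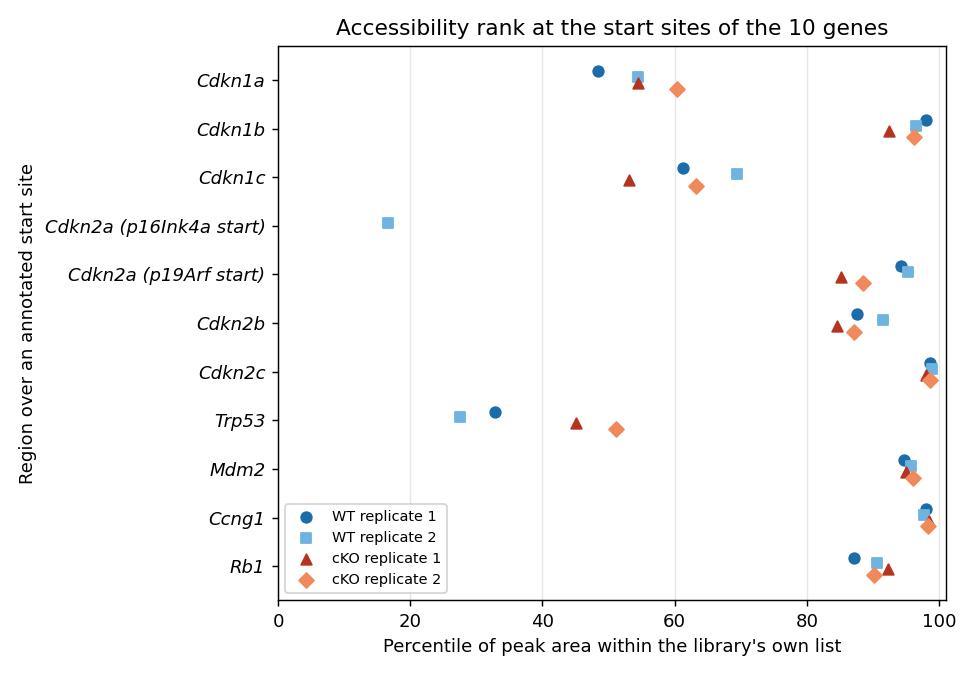
Percentile of peak area at each region over a start site of the 10 genes, with 1 point for each library. Blue points are WT and red or orange points are cKO; in Trp53 both cKO points (45.0 and 51.2) lie to the right of both WT points (32.7 and 27.6), and the p16Ink4a start of Cdkn2a was called in WT replicate 2 only.

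Among regions called in all 4 libraries, the largest cKO excess was at Trp53, the gene for p53 (ENSMUSG00000059552.13, chr11:69580359-69591873, forward strand). It had 4 regions, all called in all 4 libraries. Of these, 3 were higher in cKO without overlap (against 22.2% of all such regions) and none was lower (against 35.1%). The region over its start (chr11:69580015-69580618, whose promoter is printed above) was at percentiles 32.7 and 27.6 in WT against 45.0 and 51.2 in cKO. Both cKO values thus lay above both WT values, by 12.3 points at the nearest pair, and the means differed by 17.96 points.

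At the Trp53 start the larger area came with wider peaks. The peak over the start was 401 and 279 bp wide in WT and 604 and 583 bp in cKO. Its summit −log10 p was 4.09 and 4.16 in WT against 4.39 and 4.84 in cKO, so the cKO summits were also higher. The area per base, however, was lower in cKO, at percentiles 22.5 and 37.3 in WT against 12.3 and 21.7 in cKO, and by that measure the direction turned.

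The intronic Trp53 region (chr11:69585861-69586227), centred 5639 bp after the start, was higher in cKO under all 5 other rankings as well. It was at percentiles 47.5 and 54.4 in WT against 63.4 and 66.2 in cKO, a difference of 13.8 points with no overlap. Its area per base was at percentiles 67.8 and 80.2 in WT against 85.6 and 87.8 in cKO. The printed sequence around its summit holds a PU.1 match, a word present in 4 of the 50 regions (8%) and in 11.8% of all regions.

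The other regions at Trp53 differed less. An intronic region nearer the start (chr11:69581131-69581668) was at 58.5 and 53.1 in WT against 62.4 and 57.7 in cKO, which overlap. The region over the start of Wrap53 (chr11:69578956-69579708), the neighbouring gene read in the opposite direction, was at 75.3 and 77.8 in WT against 80.9 and 80.1 in cKO. The gap at Wrap53 was 2.32 points, and the genotypes overlapped when peaks were ranked by summit −log10 p or by area per base.

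**Figure D3:**
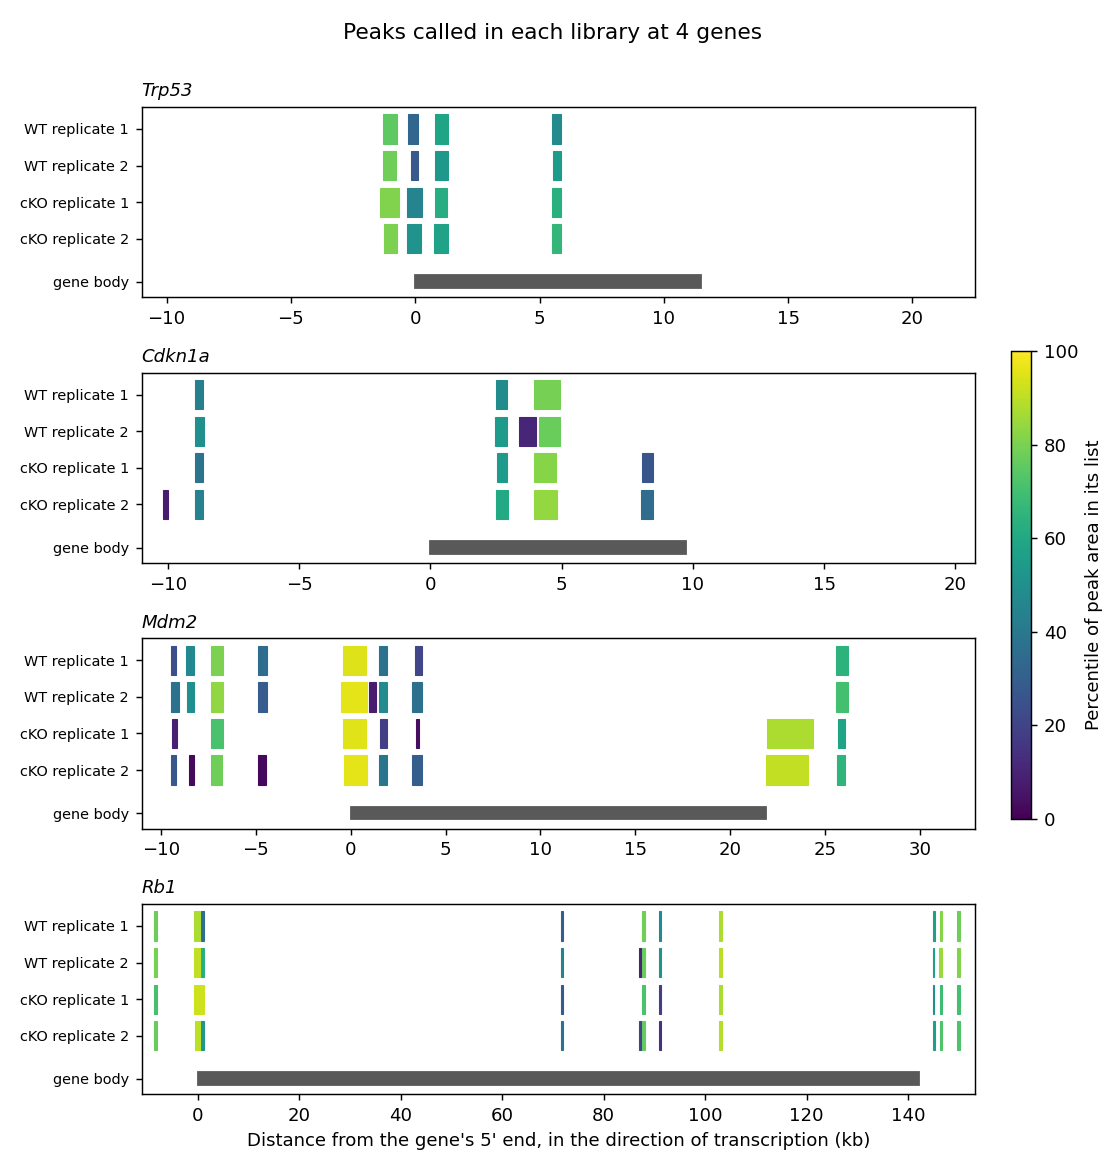
Peaks of each library at Trp53, Cdkn1a, Mdm2 and Rb1, drawn to scale as distance in kb from the gene's 5′ end in the direction of transcription. Each box is 1 peak, its width is the peak's width and its colour the percentile of its area in that library's list; the grey bar is the gene body. The wide cKO peaks beyond the 3′ end of Mdm2 (2441 and 2229 bp) and the Cdkn1a peaks of 416 and 478 bp near the 3′ end of that gene have no WT counterpart.

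Cdkn1a, the gene for p21 (ENSMUSG00000023067.14, chr17:29090976-29100727, forward strand), had 5 regions, and its gained region was intragenic. This region (chr17:29098998-29099475, 478 bp) is centred in an intron and reaches into the exon that starts at 29099344, which is exon 3 of transcript Cdkn1a-201. It was called at percentiles 26.8 and 34.9 in the cKO libraries and in neither WT library. With a stricter threshold, the median area of each list, it was in no list, so the call rests on weak peaks.

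The start region of Cdkn1a (chr17:29093437-29093922) was at 48.3 and 54.4 in WT against 54.5 and 60.3 in cKO. The higher WT and the lower cKO value differed by only 0.068 points, and the genotypes overlapped when summit −log10 p or summed area was ranked. Per base, however, the genotypes stood apart, at percentiles 51.2 and 50.04 in WT and 65.1 in both cKO libraries. The next region downstream (chr17:29094342-29095903), which lies over the start of the annotated gene AC167363.2, was at 78.9 and 77.0 in WT against 81.8 and 83.9 in cKO, and the genotypes overlapped there by summed area.

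Cdkn1a is known to be activated through p53 sites upstream of the gene. Matches to the p53 element with at most 1 mismatch were found there at chr17:29090906-29090937 and chr17:29090928-29090947, just before the upstream start:
Cdkn1a match with 0 mismatches: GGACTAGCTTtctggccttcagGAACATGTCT
Cdkn1a match with 1 mismatch: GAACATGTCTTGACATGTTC
No peak was called over either match in any library. The region 8804 bp upstream of the nearest start (chr17:29081992-29082357) was at 42.8 and 49.5 in WT against 37.96 and 44.04 in cKO, which overlap, though not under 2 of 5 other rankings.

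Mdm2, the gene for the ubiquitin ligase that limits p53 (ENSMUSG00000020184.15, chr10:117688875-117710758, reverse strand), had 10 regions, 1 of them gained. The gained region (chr10:117686407-117688875, 2469 bp) covers the 1522 bp between the 3′ end of Mdm2 and that of Cpm, the gene for carboxypeptidase M, which is read toward it. It runs 946 bases into Cpm and touches the last exon of Mdm2, exon 12, by 1 base.

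The cKO peaks of this region were at percentiles 87.8 and 90.6, with areas of 1962 and 2443, and no peak was called there in WT. Of all 2653 gained regions, 12, with this one counted, had a mean percentile at or above its 89.2, and the median was 18.97. The peaks were wide, at 2441 and 2229 bp (percentiles 99.7 and 99.4 of width), where the median gained region spanned 309 bp. They were also shallow, with an area per base at percentiles 7.69 and 19.8 of their lists and a summit −log10 p of 5.00 and 5.65. The region stayed gained under the stricter threshold, with lists of equal length and with the requirement of 50% cover. Of its bases, 44.9% are masked as repeats in the RefSeq sequence, against a median of 11.2% in gained regions and 9.88% in all. Whether this affected the mapping of reads was not tested. A further region beyond the 3′ end (chr10:117684579-117685198) overlapped between genotypes, at 64.4 and 70.2 in WT against 58.4 and 65.2 in cKO. Of 5 other rankings, it was lower in cKO without overlap under 3 and higher under 1.

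The Mdm2 start region (chr10:117709892-117711287) was among the strongest of the lists and overlapped between genotypes, at 94.6 and 95.8 in WT against 94.96 and 96.1 in cKO. Under 4 of 5 other rankings it was higher in cKO without overlap, by at most 2.07 points. It spans exons 1 and 2 with the intron between them, where the p53-responsive promoter of this gene is known to lie. In the upstream flank the cKO values were lower. The region centred 7034 bp before the start (chr10:117717453-117718130), printed above with its p53 and AP-1 matches, was at 80.5 and 83.5 in WT against 71.5 and 77.98 in cKO.

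Of the 3 weaker regions in the upstream flank of Mdm2, 2 were not called in cKO replicate 1. The region at chr10:117719004-117719420 was at 47.2 and 49.5 in WT, was not called in cKO replicate 1 and was at 2.41 in cKO replicate 2. The region at chr10:117715166-117715621 was at 35.5 and 29.2 in WT, was likewise not called in cKO replicate 1 and was at 2.21 in cKO replicate 2. In both, the WT libraries held stronger peaks and the cKO libraries at most a peak near the lowest area that was called. The farthest region (chr10:117719776-117720223) was called in every library and overlapped, at 23.98 and 37.3 in WT against 8.83 and 27.2 in cKO. The intronic regions at chr10:117708825-117709256 (37.8 and 47.4 in WT, 18.5 and 38.7 in cKO) and chr10:117707000-117707537 (20.9 and 36.7 in WT, 3.51 and 29.4 in cKO) overlapped between genotypes as well. By the other rankings, the first of these was lower in cKO without overlap under 4 of 5, the second under 1 and the farthest upstream region under 3.

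Mdm2 lies 407 kb from Lyz2, the locus that carries Cre in the cKO mice. Within 1 Mb of Mdm2 but outside its own window, 79 regions were called in all 4 libraries, and 46 of them (58.2%) were lower in cKO without overlap, against the 35.1% of all regions, while 2 (2.53%) were higher. Their median difference was -5.72 points. For regions on this stretch of chromosome 10, the linked Cre allele and H3.3 loss cannot be told apart.

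**Figure D4:**
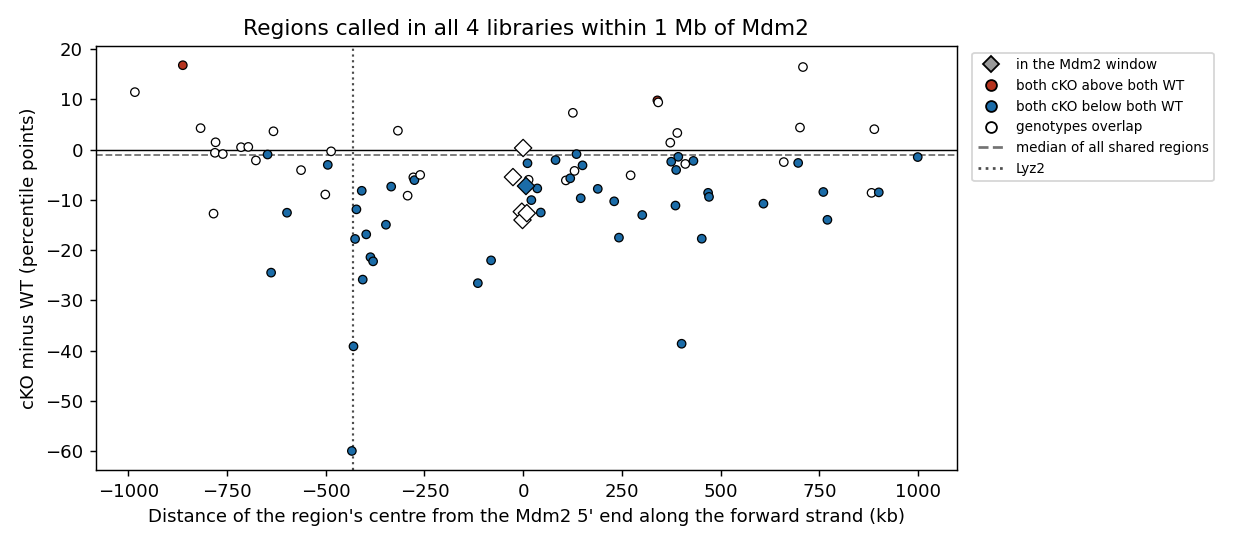
Difference between genotypes (cKO minus WT, percentile points) for the 85 regions called in all 4 libraries within 1 Mb of Mdm2, against distance from its 5′ end in kb. Diamonds are the 6 regions in the Mdm2 window, fill shows whether the 2 genotypes overlapped, the dotted line marks Lyz2, and most of the points without overlap (47 of 85 lower, 2 higher) lie below 0.

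Ccng1, the p53 target gene for cyclin G1 (ENSMUSG00000020326.7, chr11:40748552-40755311, reverse strand), had the start region with the best p53 matches. The region (chr11:40754530-40755911) was at 97.97 and 97.8 in WT against 98.5 and 98.4 in cKO. Both cKO values lay above both WT values by 0.423 points, and this order held under all 5 other rankings. Its matches with at most 1 mismatch, here on the forward strand, lie at chr11:40754936-40754955 and chr11:40755462-40755481:
Ccng1 match inside the gene: AGACTAGCCCGGGCTTGCGT
Ccng1 match before the start: AGGCTTGCCCGGGCAGGTCT
A weak region 8293 bp upstream (chr11:40763489-40763719) was not called in WT replicate 1, was at 6.00 in WT replicate 2 and was at 25.8 and 34.2 in cKO.

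Over the windows of all 10 genes, 25 matches with at most 1 mismatch were found, and 4 of them lay in a called region. Besides the Ccng1 pair, these were the Mdm2 upstream match (chr10:117717736-117717755) and the intronic Rb1 match (chr14:73234766-73234790). Both lay in regions that were lower in cKO:
Mdm2 match: GGACATGTTTGTACATGTTT
Rb1 match: ACACATGTCTtgtccAGGCTAGTTT
Within 301 bp around the summit, a match with at most 1 mismatch was present in 3 of the 50 regions (6%) and in 0.855% of all regions. With at most 3 mismatches the shares were 20% and 17.4%. Of the other words, E2F was in 6% of the 50 regions against 1.02% of all, and AP-1 in 12% against 15.1%. The 3 regions with an E2F match lay over the p19Arf start of Cdkn2a and the starts of Rb1 and Faf1. Over all regions, E2F was in 2.93% of those classed as promoters and in 0.686% of the rest. The median GC content was 51.2% at the 10 genes and 48.2% over all regions, and the median ratio of observed to expected CpG was 0.399 against 0.235. These values also differ by class, with a median GC of 60.5% in all promoter regions and 47.2% in the rest.

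Rb1, the gene for the retinoblastoma protein (ENSMUSG00000022105.6, chr14:73183673-73325822, reverse strand), held the largest cKO deficit among regions called in all 4 libraries. Of its 10 regions 9 were called in all 4 libraries. Of these, 6 were lower in cKO without overlap (against 35.1% of all such regions) and none was higher (against 22.2%). The intronic region with the p53 match (chr14:73234497-73234899) was at 48.03 and 51.4 in WT against 18.2 and 14.1 in cKO. The WT peaks were thus of middle rank and the cKO peaks of low rank, a difference of -33.6 points with a gap of 29.8.

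Its peaks were narrower in cKO, at 240 and 210 bp against 403 and 373 bp in WT, and the summit −log10 p was 4.08 and 3.81 against 5.28 and 5.52. Unlike at the Trp53 start, width, height and area per base moved the same way here. The region lies 3197 bp from the start of Lpar6, a receptor gene nested within Rb1. With lists of equal length it was no longer called in all 4 libraries, since weak peaks were then removed.

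The Lpar6 start region itself (chr14:73237719-73238320) was at 78.4 and 77.3 in WT against 71.5 and 76.5 in cKO, a gap of less than 1 point. Beyond the 3′ end of Rb1, in introns of neighbouring genes, the regions at chr14:73179076-73179684 and chr14:73175711-73176286 were lower in cKO under all 5 other rankings as well. The former was at 81.8 and 85.1 in WT against 69.01 and 72.3 in cKO, and the latter at 77.8 and 81.1 in WT against 70.03 and 72.04 in cKO. Another region there (chr14:73180623-73181011) was at 56.9 and 56.4 in WT against 49.2 and 55.8 in cKO. It was lower without overlap under 3 of 5 other rankings. The region centred 8305 bp before the Rb1 start (chr14:73333852-73334401) was at 77.7 and 79.1 in WT against 70.5 and 76.9 in cKO. Its gap was 0.815 points, and it was lower under all 5 other rankings. The Rb1 start region (chr14:73324576-73326434) did not share this pattern and overlapped between genotypes, at 87.2 and 90.5 in WT against 92.2 and 90.1 in cKO. Under 2 of 5 other rankings it was higher in cKO without overlap. Under the other 3 it overlapped with a lower cKO mean, by -0.799 points for summed area, -2.62 for summit −log10 p and -12.2 per base. In cKO replicate 1 the region held 1 peak of 1826 bp, where each other library held 2 peaks.

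Cdkn1b and Cdkn1c each had a distal region with a large cKO deficit. At Cdkn1b, the gene for p27 (ENSMUSG00000003031.14, chr6:134920401-134925513, forward strand), the region centred 3193 bp before the start (chr6:134916839-134917577) was at 47.2 and 57.4 in WT against 16.9 and 38.5 in cKO. The difference of -24.6 points came with narrower peaks (525 and 739 bp in WT, 268 and 339 bp in cKO), and the genotypes overlapped per base. The start region of Cdkn1b (chr6:134919660-134921866) was at 98.03 and 96.5 in WT against 92.5 and 96.3 in cKO, a gap of 0.258 points that was lost per base. The start of the noncoding gene Lockd, downstream of Cdkn1b, was at 97.4 and 97.7 in WT against 98.01 and 97.8 in cKO, slightly higher in cKO under this and all 5 other rankings. The region between them (chr6:134926738-134927755) overlapped, at 62.2 and 59.5 in WT against 54.9 and 64.4 in cKO. An exonic region of Cdkn1b (chr6:134922621-134923210) was at 64.1 and 66.6 in WT against 60.1 and 63.7 in cKO. Its gap was 0.394 points, and it was lower without overlap under 2 of 5 other rankings.

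At Cdkn1c, the imprinted gene for p57 (ENSMUSG00000037664.13, chr7:143458339-143461050, reverse strand), a distal region was lower in cKO under all rankings. This region beyond the 3′ end (chr7:143449584-143449943) was at 66.2 and 71.2 in WT against 41.5 and 55.3 in cKO, a difference of -20.3 points. Its area per base was at percentiles 97.5 and 97.2 in WT against 61.7 and 78.8 in cKO. The start region (chr7:143460850-143461468) overlapped between genotypes, at 61.3 and 69.4 in WT against 53.1 and 63.2 in cKO, and was lower in cKO without overlap under 3 of 5 other rankings. A weak upstream region (chr7:143466209-143466763) was at 19.1 and 25.5 in WT, absent from cKO replicate 1 and at 3.14 in cKO replicate 2.

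Cdkn2a (ENSMUSG00000044303.6, chr4:89274471-89294653, reverse strand) encodes p16Ink4a and, from a separate upstream start, p19Arf, which inhibits Mdm2. The p19Arf start region (chr4:89294281-89295826) was strong in all libraries and lower in cKO, at 94.3 and 95.4 in WT against 85.2 and 88.4 in cKO. The difference of -8.01 points was larger per base, at percentiles 70.6 and 76.5 in WT against 37.9 and 40.3 in cKO, with peaks of 1401 and 1408 bp in WT and 1355 and 1534 bp in cKO. The p16Ink4a start region (chr4:89282049-89282371) was called only in WT replicate 2, at percentile 16.7. Of the promoters printed above, the p19Arf promoter has 78.4% GC with 40 CpG dinucleotides and an E2F match, and the p16Ink4a promoter has 60% GC with 7 CpG dinucleotides.

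Cdkn2b and Cdkn2c showed small differences at their starts. Cdkn2b, the gene for p15 (ENSMUSG00000073802.5, chr4:89306299-89311039, reverse strand), had a single region (chr4:89310366-89311459), at 87.6 and 91.6 in WT against 84.6 and 87.1 in cKO, a gap of 0.492 points that was lost per base. Cdkn2c, the gene for p18 (ENSMUSG00000028551.14, chr4:109660876-109667189, reverse strand), had the highest start region of the 10 genes (chr4:109665032-109667409), at 98.6 and 98.996 in WT against 98.1 and 98.6 in cKO. The gap at Cdkn2c, 0.0095 points, was not kept per base or by summed area. Its downstream region (chr4:109656917-109658155) overlapped, at 73.03 and 81.1 in WT against 61.1 and 74.4 in cKO, but was lower in cKO without overlap under 4 of 5 other rankings.

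The wider p53 and Rb pathways were counted with 46 other genes in 3 lists, of which 45 had a region in the same window. Their 227 regions included 6 gained (2.64%, background 3.72%) and 11 lost (4.85%, background 7.25%). Of 150 called in all 4 libraries, 36 (24%, background 22.2%) were higher and 47 (31.3%, background 35.1%) lower in cKO. Their median difference was -0.42 points, against -1.10 over all regions called in all 4. A gained region was found in the windows of Cdk4, Aen, Ccnd2, Sesn2 and Cdk6, and a lost region in those of Ccnd1, Rbl1, Fas, Btg2, Ccnd3, Sesn1, Chek2 and E2f1. Several of these regions lay nearest the start of another gene, such as the gained Aen region, nearest that of Isg20. The highest in rank were a lost region at Ccnd1, the gene for cyclin D1, at 43.2 and 52.2 in WT, and a gained region near Cdk4, at 25.5 and 65.6 in cKO. The third was a lost intronic region at Rbl1, the gene for the Rb-related protein p107, at 31.4 and 48.4 in WT. The nearest starts to these regions at Ccnd1, Cdk4 and Rbl1 were those of LTO1, A730063M14Rik and Gm14277.

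By list, the p53 target genes held 65 regions called in all 4 libraries, 16 higher and 22 lower in cKO (24.6% and 33.8%). The p53 regulators and damage kinases held 21, with 4 higher and 9 lower (19% and 42.9%). The G1/S kinases, cyclins, pocket proteins and E2F genes held 64, with 16 higher and 16 lower (25% each). Over all regions called in all 4 libraries the shares were 22.2% higher and 35.1% lower. All of these shares are descriptions of 2 libraries for each genotype.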

How the data were processed

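ATAC-seq peak lists of 4 BMDM libraries (WT and cKO, 2 biological replicates each) were used, and the sample titles gave group and replicate number. Paired reads were aligned by the authors to mm10 with Bowtie2 2.5.1, per the labels, and Genrich was run at default settings on each library by itself. The version of Genrich, removal of duplicates and any shift of read ends were not given in the sources used here. The deposited peak signal is the area under the significance curve, with a minimum of 200 in each list, and the deposited −log10 p-value is that at the summit. Read depth is unknown, so no interval for counting error could be given, and a site just under the minimum is missing from a list.

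Peaks from any list were merged where they overlapped by 1 bp or more (Python 3.11.15, pandas 2.3.3, numpy 2.4.6). A region's value in a library was the percentile of the area of its top peak among all peaks of that list. Genes, starts and exons came from GENCODE M21, the sequences from RefSeq GRCm38.p6, whose chromosomes held all peak coordinates, and coordinates are 1-based. In the RefSeq promoter table, 8 of the 10 genes matched; Cdkn1c and Rb1 have no entry there. The exact permutation test used scipy 1.17.1 over the 6 assignments of labels, and the counting steps were tested on simulated data. No fit over reads was possible from peak lists, so regions carry no p-value.

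The 10 genes were named in full, with each start region, the gained and lost regions and the regions without overlap. The last were not always given in order of the gap. Further regions were named after their values were seen, as were the neighbourhood of Lyz2, the strict motif limit and the ranking by area per base. The genes, lists and tests were chosen with earlier results of these data known. Alternatives were a stricter threshold, lists of equal length, cover of 50% of a region, other windows (gene body alone, 50 kb, centre inside), other rankings, each library left out and the replicate number as a block.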

Additional observations from a re-analysis of the deposited data

How the results depend on the processing

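Ranking by area per base was chosen after the data were seen, and the other alternatives were listed earlier. Of 74 values recomputed under 16 alternatives, 20 moved or changed sign. The 74 include the values with replicate number as a block, which could not differ from the main ones. Under the stricter threshold 1 of 31 regions was gained (background 3.81%), and 4 of 23 called in all 4 were higher (background 22.1%). The difference in peaks per library was then 0.5. Under equal list length 4 of 44 regions were gained (background 7.04%) and 3 lost (background 7.30%), with a difference of 0 peaks. The background share of higher regions moved to 36.8%, beside 9 of 34 at the 10 genes. Cover of 50% gave 1 lost region of 50 (background 8.35%). The gene body alone gave 7 lower regions of 20 called in all 4 (background 35.1%) and a difference of 0 peaks. With 50 kb flanks, 1 of 82 regions was lost (background 7.25%). Of 60 called in all 4, 11 were then higher (background 22.2%) and 29 lower (background 35.1%). The number of peaks at the 10 genes per 10000 peaks of a list differed by 0.279. Leaving out each library, gained regions ranged from 2 to 4, lost from 0 to 5, lower from 14 to 25 and the difference in peaks from -7 to 4. The background shares ranged from 3.88% to 9.16% gained, 7.66% to 14.4% lost and 35.9% to 56.6% lower. Without WT replicate 1, 5 of 50 regions were lost and 24 of 37 were lower. Without cKO replicate 2, 3 of 49 were lost and 25 of 35 were lower, and without WT replicate 2, 4 of 45 were gained. These counts moved since a single library then decides a group. The cause of the other changes was not tested.

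The median difference at the 10 genes stayed below 0, from -6.37 to -1.33 over all its alternatives. The median over all regions called in every library used moved too, from -3.19 to 0.293. Between 1 cKO and 1 WT library at a time, the median at the 10 genes ranged from -6.93 to 0.423. The difference in peaks is smaller than the replicate spread, so its sign carries no weight. Of the 21 regions without overlap, 14 kept their direction under the stricter threshold, 17 under equal list length and 14 by area per base, where the Trp53 start turned. With the replicate number as a block, the difference was -1.5 peaks and the median -3.85. A mean over numbers equals the main difference of means, so these values could not change and check nothing. Within the numbers the differences were 1 and -4 peaks (exact sign-flip test, p = 1, with few possible outcomes over 2 pairs). Deviations of replicates 1 and 2 correlated between genotypes at 0.295 over all regions and 0.698 over the 35 at the 10 genes, but with 2 pairs and no stated shared batch the numbers were not taken to pair the samples. Unknown depth and 2 libraries for each genotype limit every comparison. A permutation test over the 4 libraries cannot go below p = 0.333, and the sign-flip test has a higher floor.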
